A study of Mus musculus with 12 samples.

Results

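The 43 genes described here are interferon-stimulated genes whose RNA levels differed between the 3 Acot12-/- mice of a kidney obstruction experiment. All 43 were found by symbol in every library, out of 23183 symbols, and all 43 passed the filter on low values with 13243 genes. They were chosen because replicates 2 and 3 of the knockout differed from replicate 1 in both kidneys, so differences between the knockout mice, and between them and wild-type mice, are given as descriptions, and where a fit between genotypes is printed nothing is read from it. ACOT12 is an acyl-CoA thioesterase, which releases fatty acids from coenzyme A, and the study asked what its loss does in fibrotic kidneys. Kidney cortex RNA was sequenced from Acot12+/+ (Wildtype) and Acot12-/- mice, in 4 groups of 3 libraries. The mice were males of 6 to 7 weeks, C57BL/6 by the labels and C57BL/6N by the study's methods, that underwent unilateral ureteral obstruction (UUO), in which a ureter is tied off, and both the obstructed kidney and the contralateral (CL) kidney were taken at day 7. The CL kidney therefore belongs to an operated animal, and no unoperated mouse is among these libraries. The knockout is global and carries an allele made with an RNA-guided endonuclease, so the mutation is not limited to a cell type of the kidney.

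Interferons are secreted proteins, and cells release those of type I and type III when they sense viral or misplaced nucleic acid. Type I and type III interferons act through JAK1 and TYK2 on a complex containing STAT2 and IRF9 that binds the interferon-stimulated response element (ISRE) in promoters, whereas interferon gamma acts on gamma-activated sites (GAS). The genes switched on in this way include sensors of nucleic acid, antiviral effectors, ubiquitin-like modifiers, GTPases that attack intracellular microbes and the machinery that presents peptides on class I molecules.

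Promoter stretches of 7 of the genes are shown because they hold these letters beside the start of the gene. The sequences are from RefSeq on GRCm38.p6, read 5′ to 3′ on the strand of the gene, and capitals mark matches to the ISRE core (GAAA, any 2 bases, GAAA) or to the GAS letters (TTC, any 3 bases, GAA) on either strand, with overlapping matches merged. Isg15 lies at chr4:156200856-156200915 on the minus strand, Ifit1 at chr19:34640769-34640828 and Ifit3 at chr19:34583365-34583424 on the plus strand. Oas1a lies at chr5:120907526-120907585 and Oas1g at chr5:120887614-120887673, both on the minus strand. Gbp7 lies at chr3:142530230-142530292 and Igtp at chr11:58199491-58199550, both on the plus strand. The first 5 stretches hold ISRE cores, and Gbp7 and Igtp hold GAS letters as well.
Isg15: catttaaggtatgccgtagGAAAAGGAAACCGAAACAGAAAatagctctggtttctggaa
Ifit1: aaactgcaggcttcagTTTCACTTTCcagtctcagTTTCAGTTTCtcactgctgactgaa
Ifit3: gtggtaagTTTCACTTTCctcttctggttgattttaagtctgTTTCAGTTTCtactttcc
Oas1a: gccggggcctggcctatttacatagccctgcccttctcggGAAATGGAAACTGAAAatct
Oas1g: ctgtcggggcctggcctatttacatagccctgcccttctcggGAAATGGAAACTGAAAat
Gbp7: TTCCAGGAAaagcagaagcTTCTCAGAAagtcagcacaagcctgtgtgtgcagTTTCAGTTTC
Igtp: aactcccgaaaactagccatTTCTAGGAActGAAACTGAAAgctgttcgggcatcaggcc

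RefSeq promoter windows of 300 bases, from 250 before to 50 after a start, were given for 32 of the 43 genes. An ISRE core stood in 18 of the 32, or 56.2%, beside 3.99% of all 27025 genes of the table. GAS letters stood in 8 of the 32, beside 9.55% of all genes, and 5 genes held both. Several of the genes are neighbours, and Oas1a shares 57.6% of its 50-base runs with Oas1g and Ifit3 shares 51.2% with Ifit3b. How the authors divided reads among such copies was not given in the sources used here, so the levels of Oas1a, Oas1g and Ifit3 are uncertain. A match to these letters describes the sequence and does not show that a factor was bound.

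Acot12 itself followed the labels. Its level was 73.8, 52.7 and 78.1 FPKM (fragments counted per kilobase of transcript and corrected for library depth) in Acot12+/+ CL libraries and 9.98, 16.7 and 21.2 FPKM in Acot12+/+ UUO libraries. In Acot12-/- mice it was 9.15, 9.01 and 6.80 FPKM in CL and 3.28, 1.80 and 3.86 FPKM in UUO libraries, below every wild-type library of the same side. Of the proximal tubule markers, 10 were measured in every library, and Kap was listed at 0 in 3 CL libraries beside very high values in the others and was left out. Depth relative to the first wild-type library of the same side lay between 0.924 and 1.21 in CL and between 0.807 and 1 in UUO libraries. Acot12-/- CL replicate 2 stood apart from the other knockout CL libraries, with correlations across genes of 0.950 and 0.942, while the other pair reached 0.984. In Acot12-/- UUO libraries replicate 2 had 0.974 and 0.975, and the other pair 0.989.

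The 3 knockout mice differed in the level of these genes, and the order was the same in both kidneys for most of them. Kidneys with the same replicate number are called a mouse here, although the labels give only the number. Their deviations from the group means went together, with correlations of 0.13 to 0.36. Libraries of different genotypes, which cannot share a mouse, reached 0.45, so these values do not establish the pairing. Relative to the wild-type mean of the same side, the median gene lay at -0.89, 0.77 and 0.22 (log2) in CL kidneys of Acot12-/- mice 1, 2 and 3 and at 0.02, 1.20 and 0.99 in their UUO kidneys. The wild-type libraries lay between -0.08 and 0.18. Mouse 1 was the lowest of the 3 knockout mice in both kidneys for 40 of 43 genes, a pattern seen in 11.6% of all genes tested, and mouse 2 was the highest in both for 31, beside 16.6%. All 3 mice stood in the same order in both kidneys for 31 genes, beside 27.4%. These counts restate the choice of the genes. The order of the wild-type mice was the same in both kidneys for 13 genes, beside 24.3% of all genes tested.

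**Figure D1:**
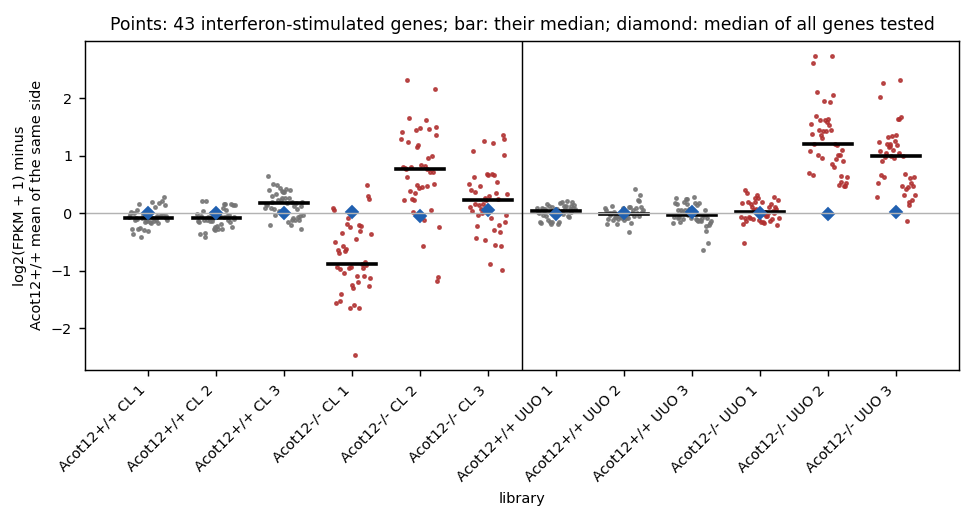
Difference of log2(FPKM + 1) from the Acot12+/+ mean of the same kidney side (vertical axis) in each of the 12 libraries (horizontal axis). Points are the 43 genes, bars their medians and diamonds the medians of all genes tested. The bars of Acot12-/- UUO libraries 2 and 3 lie at 1.20 and 0.99, that of Acot12-/- CL library 1 at -0.89, and the diamonds stay near 0.

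Set against the wild-type libraries, the CL kidney of mouse 1 lay below all 3 for 35 genes (34.8% of all genes tested) and those of mice 2 and 3 lay above all 3 for 19 (13.0%). The UUO kidneys of mice 2 and 3 lay above every wild-type UUO library for 40 genes (11.7%), while that of mouse 1 was within the wild-type range for 24 (45.5%). The spread of these genes, which were chosen to vary among the knockout mice, was wide in the knockout and narrow in the wild type. The highest library exceeded the lowest by a median factor of 4.15 among Acot12-/- CL kidneys and 2.62 among Acot12-/- UUO kidneys, beside 1.39 and 1.22 in the wild type. The factor reached 17.7 for Ifit1 in Acot12-/- CL kidneys and 7.62 for Isg15 in Acot12-/- UUO kidneys. It was smallest for Tap1 in CL kidneys, at 1.76, and for Psmb9 in UUO kidneys, at 1.32. This factor was not computed over all genes, which also varied more in knockout CL kidneys. Correlations between libraries across genes were 0.942 to 0.984 there, beside 0.985 to 0.989 in wild-type CL kidneys. In whole tissue, fewer cells of a type and less RNA per cell cannot be told apart.

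**Figure D2:**
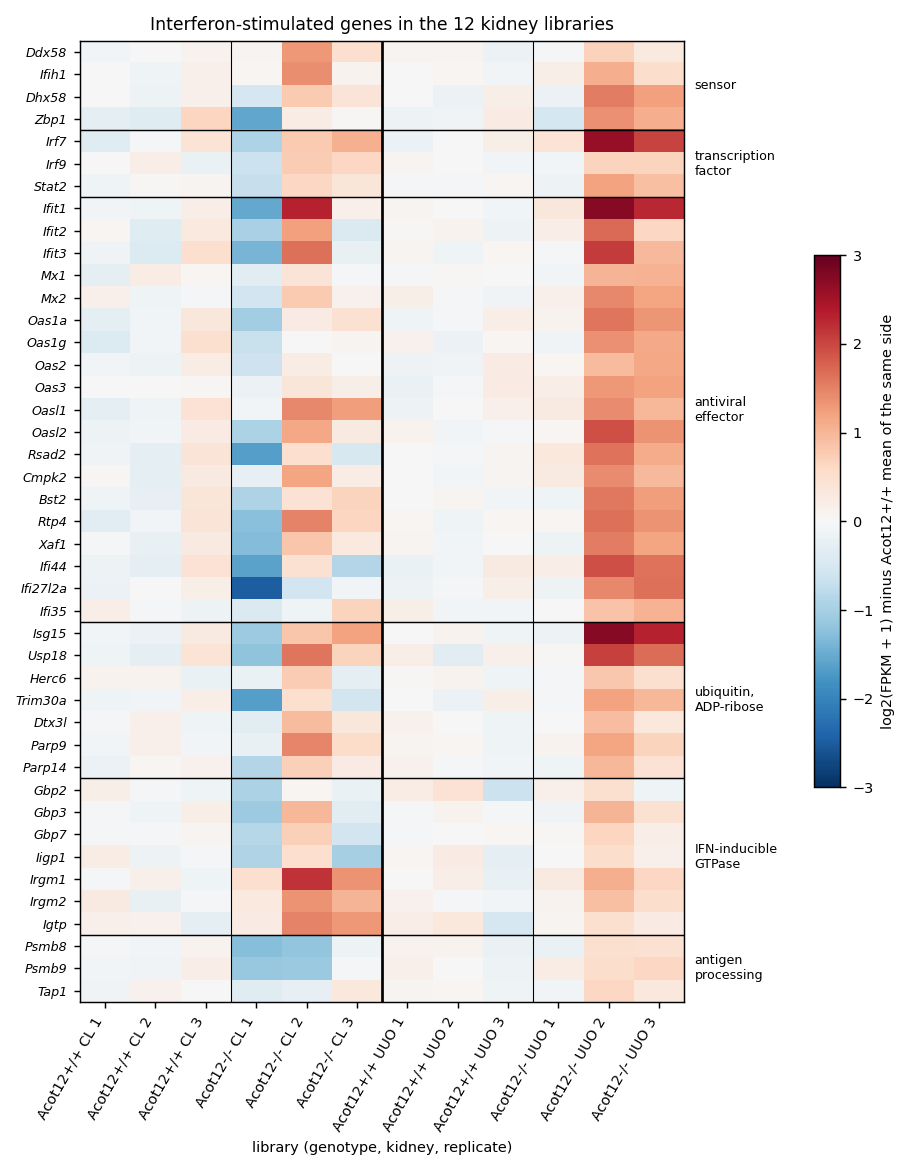
Each row is a gene, grouped by role, and each column a library. Colour gives log2(FPKM + 1) minus the Acot12+/+ mean of the same side, from blue (lower) to red (higher). Acot12-/- CL library 1 is blue for most genes, Acot12-/- UUO libraries 2 and 3 are red, and Irgm1, Irgm2 and Igtp are red in all 3 Acot12-/- CL libraries.

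Among the sensors, Zbp1, which binds Z-form nucleic acid, had 4.83, 4.48 and 10.001 FPKM in CL kidneys of Acot12+/+ mice and 11.5, 12.0 and 15.7 FPKM in Acot12+/+ UUO libraries. Zbp1 in the knockout had 1.39, 7.23 and 6.22 FPKM in CL and 8.70, 35.3 and 28.5 FPKM in UUO libraries. Mouse 1 lay below all wild-type libraries of its side in both kidneys, and the UUO kidneys of mice 2 and 3 lay above them. Ddx58, which encodes the RNA sensor RIG-I, had 4.12, 4.31 and 4.77 FPKM in CL kidneys of Acot12+/+ mice and 13.7, 13.6 and 11.2 FPKM in Acot12+/+ UUO libraries. Ddx58 had 4.75, 12.2 and 6.63 FPKM in CL kidneys of Acot12-/- mice and 12.2, 21.3 and 15.8 FPKM in Acot12-/- UUO libraries. For Ddx58, mouse 1 was within the wild-type range on both sides.

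Mouse 1 was the lowest of the knockout mice for all 3 transcription factors in both kidneys. Irf7, which amplifies interferon production, had 14.0, 17.5 and 24.4 FPKM in CL kidneys of Acot12+/+ mice and 30.5, 34.6 and 38.8 FPKM in Acot12+/+ UUO libraries. Knockout Irf7 levels were 9.03, 32.2 and 39.3 FPKM in CL and 45.8, 216 and 143 FPKM in UUO libraries, and all 3 UUO values were above the wild-type range. Irf9, the DNA-binding subunit of the ISRE complex, moved less. It had 12.3, 14.4 and 10.6 FPKM in Acot12+/+ CL, 24.4, 22.7 and 21.5 FPKM in Acot12+/+ UUO, 7.59, 21.7 and 19.6 FPKM in CL kidneys of Acot12-/- mice and 21.5, 37.0 and 36.7 FPKM in Acot12-/- UUO libraries. Irf9 in the UUO kidney of mouse 1 was within the wild-type range, and mice 2 and 3 were above it on both sides.

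The antiviral effectors had the widest median range in CL kidneys, a factor of 5.27 among knockout mice. Ifit1, which binds foreign RNA ends, had 12.5, 12.0 and 15.3 FPKM in CL kidneys of Acot12+/+ mice and 12.8, 12.2 and 11.5 FPKM in Acot12+/+ UUO libraries. In Acot12-/- mice Ifit1 had 3.94, 69.7 and 14.8 FPKM in CL and 15.8, 86.2 and 61.8 FPKM in UUO libraries. The CL kidney of mouse 2 was thus far above both others, and that of mouse 3 was within the wild-type range. Ifit3, a partner of IFIT1, had 14.3, 11.3 and 22.3 FPKM in Acot12+/+ CL, 22.6, 19.5 and 22.1 FPKM in Acot12+/+ UUO, 5.18, 50.2 and 12.9 FPKM in CL kidneys of Acot12-/- mice and 20.3, 94.8 and 43.02 FPKM in Acot12-/- UUO libraries. Ifit3 had the same order as Ifit1, with mouse 1 lowest and mouse 2 highest in both kidneys.

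**Figure D3:**
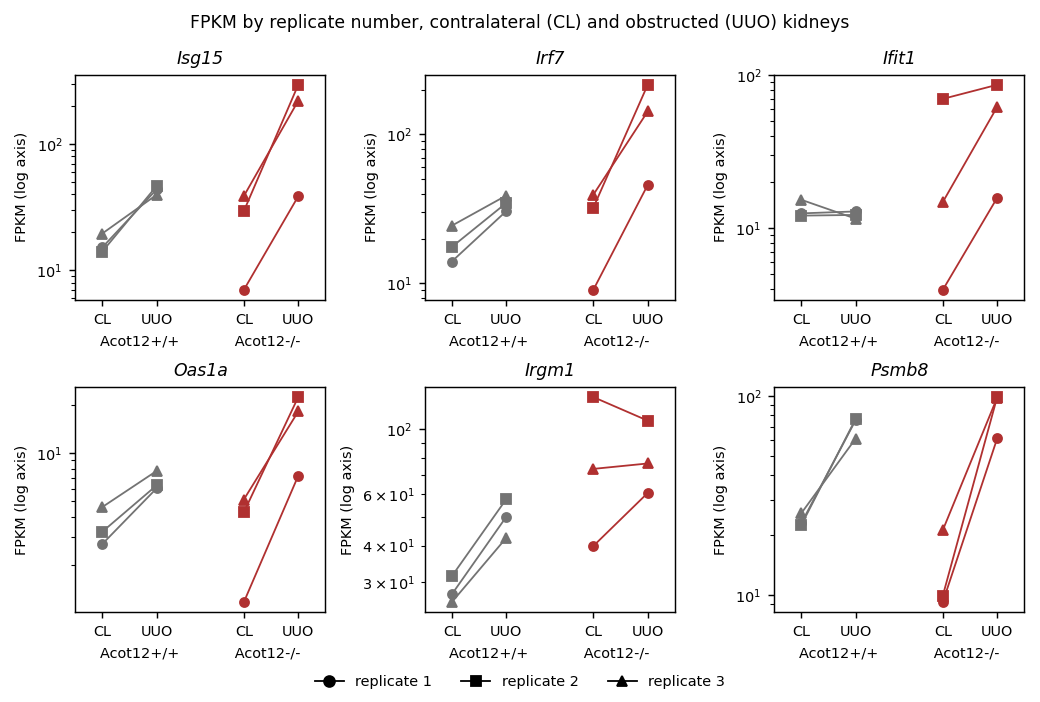
FPKM on a log axis for 6 genes, with the CL and UUO kidney of the same replicate number joined by a line, Acot12+/+ in grey and Acot12-/- in red. Grey lines lie close together, while the red line of replicate 1 runs below those of replicates 2 and 3. Irgm1 in replicate 2 is higher in CL, at 129 FPKM, than in UUO, at 107 FPKM.

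Bst2 encodes tetherin, which holds budding virus on the cell surface. It had 46.4, 43.1 and 66.3 FPKM in Acot12+/+ CL, 144, 153 and 136 FPKM in Acot12+/+ UUO, 26.4, 69.5 and 82.1 FPKM in CL kidneys of Acot12-/- mice and 133, 435 and 345 FPKM in Acot12-/- UUO libraries. Ifi27l2a had the highest level of the set. It had 212, 237 and 271 FPKM in Acot12+/+ CL, 246, 268 and 306 FPKM in Acot12+/+ UUO, 42.4, 160 and 224 FPKM in CL kidneys of Acot12-/- mice and 246, 741 and 853 FPKM in Acot12-/- UUO libraries. For Bst2 and Ifi27l2a mouse 3, not mouse 2, was highest in CL. Oas1a makes the oligoadenylate that activates RNase L. It had 2.70, 3.22 and 4.60 FPKM in Acot12+/+ CL, 6.04, 6.30 and 7.75 FPKM in Acot12+/+ UUO, 1.17, 4.26 and 5.13 FPKM in CL kidneys of Acot12-/- mice and 7.22, 22.4 and 18.2 FPKM in Acot12-/- UUO libraries. Its neighbour Oas1g ranged from 0.225 to 1.04 FPKM in CL kidneys of Acot12-/- mice and from 1.92 to 7.05 FPKM in Acot12-/- UUO libraries, with mouse 1 lowest in both.

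Among genes of ubiquitin-like and ADP-ribose modification, Isg15 encodes the ubiquitin-like modifier itself. It had 15.2, 14.1 and 19.6 FPKM in CL kidneys of Acot12+/+ mice and 43.7, 46.6 and 39.7 FPKM in Acot12+/+ UUO libraries. Isg15 in the knockout had 7.00, 29.4 and 38.6 FPKM in CL and 38.5, 294 and 219 FPKM in UUO libraries. The UUO kidney of mouse 1 lay just below the wild-type range and those of mice 2 and 3 far above it. Usp18, which removes ISG15 and restrains the interferon receptor, had 0.997, 13.0 and 6.24 FPKM in CL kidneys of Acot12-/- mice and 5.80, 26.8 and 20.4 FPKM in Acot12-/- UUO libraries. The wild type ranged from 2.79 to 5.08 FPKM in CL and from 4.30 to 6.61 FPKM in UUO for Usp18. Parp9, which acts in ADP-ribosylation with DTX3L, had 6.01, 21.4 and 10.9 FPKM in CL kidneys of Acot12-/- mice and 16.5, 35.8 and 24.97 FPKM in Acot12-/- UUO libraries, beside 6.70 to 8.13 FPKM and 13.9 to 16.1 FPKM in the wild type.

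The GTPases divided. Gbp2 and Gbp3, guanylate-binding proteins that act on microbial membranes, had mouse 1 lowest and mouse 2 highest in CL kidneys, with 3.69, 8.46 and 6.91 FPKM for Gbp2 and 3.22, 16.8 and 6.18 FPKM for Gbp3 in Acot12-/- mice. In Acot12-/- UUO libraries Gbp2 had 46.3, 58.7 and 37.7 FPKM, beside 48.6, 56.2 and 26.2 FPKM in the wild type, so the ranges overlapped. Irgm1, which regulates the other immunity-related GTPases, was different. It had 27.2, 31.4 and 25.6 FPKM in Acot12+/+ CL, 50.1, 57.6 and 42.5 FPKM in Acot12+/+ UUO, 39.8, 129 and 73.2 FPKM in CL kidneys of Acot12-/- mice and 60.5, 107 and 76.4 FPKM in Acot12-/- UUO libraries. All 3 Acot12-/- CL kidneys were above the wild-type range for Irgm1, Irgm2 and Igtp, and for no other gene of the 43 was the CL kidney of mouse 1 above it, a position held by 38.6% of all genes tested. Igtp had 11.4, 11.3 and 8.20 FPKM in CL kidneys of Acot12+/+ mice and 12.3, 30.4 and 26.5 FPKM in Acot12-/- CL libraries.

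The genes of peptide processing did not follow mouse 2 in CL kidneys. Psmb8, an immunoproteasome subunit, had 22.9, 22.5 and 25.7 FPKM in CL kidneys of Acot12+/+ mice and 9.22, 9.93 and 21.2 FPKM in Acot12-/- CL libraries. Psmb9, another subunit, had 10.4, 10.3 and 12.9 FPKM in CL kidneys of Acot12+/+ mice and 4.53, 4.59 and 10.9 FPKM in Acot12-/- CL libraries. The CL kidneys of mice 1 and 2 were thus alike and below the wild type for Psmb8 and Psmb9, although mouse 2 was the highest of the knockout mice for 33 of the 43 genes in CL (41.3% of all genes tested). Tap1, the peptide transporter subunit beside Psmb9 on chromosome 17, had 4.13, 4.60 and 7.28 FPKM in Acot12-/- CL libraries, beside 5.11, 6.26 and 5.495 FPKM in the wild type. In UUO kidneys all 3 genes were above the wild-type range in mice 2 and 3.

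Whether obstruction changed these genes in wild-type mice is a comparison between the 6 wild-type libraries, although the filter and the spread of the fit draw on all 12. Most had higher levels in the obstructed kidney: 19 of 43 rose with limma at an adjusted p under 0.05 and none fell, beside 23.6% higher and 23.9% lower of all genes tested, and the median log2 fold change was 0.85. Gbp2 rose most, by 2.23 ± 0.30 (log2, SE, n = 3 per group, limma adjusted p = 0.00012), followed by Gbp3 at 1.78 ± 0.42 and Tap1 at 1.75 ± 0.21. By role, 6 of 7 GTPases, 3 of 3 genes of peptide processing and 6 of 19 antiviral effectors rose, and with the replicate number as a block 7 of 7, 3 of 3 and 12 of 19 did, with 1 effector lower. Of the sensors 1 of 4 rose, of the transcription factors 1 of 3 and of the ubiquitin and ADP-ribose genes 2 of 7. With the block 3 of 4, 3 of 3 and 7 of 7 of these did. Differences between roles were not tested. All 3 UUO libraries were above all 3 CL libraries for 36 genes, a pattern seen in 35.5% of all genes tested. The spread in this fit is shared with the knockout libraries, in which these genes were chosen to vary. Under the block 35 rose and 1 fell, beside 24.7% and 26.3% of all genes. With only the wild-type libraries 34 rose and 1 fell of the 42 that passed the filter there, beside 4119 higher and 4293 lower of 12872 genes. The scale matters as well, since with every library set to the same total FPKM 34 rose while the median of all genes moved to 0.62, and all genes split into 7645 higher and 1040 lower in place of 3129 and 3161.

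The gene that fell under the block was Rsad2, which encodes the antiviral enzyme viperin and was singled out after its values were seen. It had 16.7, 14.7 and 23.9 FPKM in CL kidneys of Acot12+/+ mice and 7.47, 7.24 and 7.99 FPKM in Acot12+/+ UUO libraries, with no overlap. Its log2 change was -1.16 ± 0.45, with a limma adjusted p of 0.0015 under the block and 0.051 without it. In Acot12-/- mice Rsad2 had 5.05, 25.9 and 12.8 FPKM in CL and 9.65, 25.4 and 17.4 FPKM in UUO libraries. Ifit1 stood at -0.11 ± 0.78 in the wild type and did not pass the test.

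**Figure D4:**
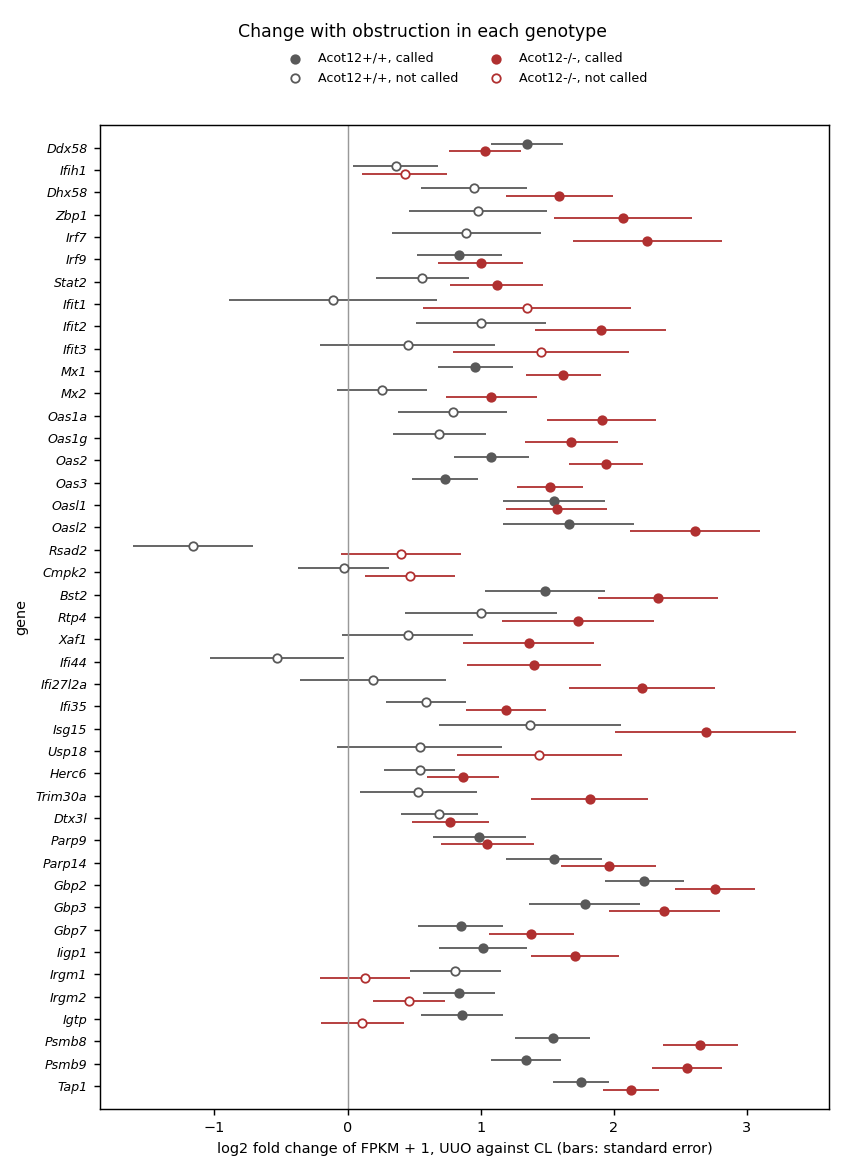
Log2 fold change of FPKM + 1 between UUO and CL kidneys (horizontal axis, bars standard errors) for each gene in Acot12+/+ (grey) and Acot12-/- (red) mice. Filled points passed an adjusted p of 0.05. In Acot12+/+ mice 19 points are filled, Gbp2 is furthest to the right at 2.23, and Rsad2 is furthest to the left at -1.16.

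In Acot12-/- mice 34 of the 43 genes rose with obstruction and none fell, beside 26.6% higher and 27.2% lower of all genes tested, with a median log2 change of 1.57. This contrast holds the knockout libraries that chose the genes, so it is not independent of that choice. The genes were chosen on differences between the mice, not between the kidneys, and the spread between the mice enters the standard errors. Gbp2 rose by 2.76 ± 0.30, Isg15 by 2.69 ± 0.68 and Psmb8 by 2.65 ± 0.28 (SE, n = 3 per group). All 43 estimates were positive, beside 49.5% of all genes tested, and UUO exceeded CL in each of the 3 mice for 40 genes, beside 34.0%. The ratio of UUO to CL differed between the mice, with medians of 5.04, 2.61 and 3.73 in mice 1, 2 and 3, beside 2.15, 2.06 and 1.76 in the wild type. Irgm1 and Igtp, with 0.13 ± 0.34 and 0.11 ± 0.31, did not pass the test, and both were below 0 when the CL kidney of mouse 1 was left out, at -0.29 and -0.27.

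The test of whether the change with obstruction differed between the genotypes passed for 0 of the 43 genes with limma, beside 0.106% higher and 0.0% lower of all genes tested, and 6 had an unadjusted p under 0.05, beside 10.5%. The median difference was 0.72 (log2). With the replicate block 2 genes passed, Ifi27l2a at 2.02 and Ifi44 at 1.93, beside 0.589% higher of all genes, and 28 of the 43 had an unadjusted p under 0.05, beside 13.2%. The contrast holds the knockout libraries that chose the genes.

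Between genotypes in UUO kidneys, all 43 estimates were above 0, beside 50.5% of all genes tested. With limma 0 passed, beside 0.0% higher of all genes tested, and 14 had an unadjusted p under 0.05, beside 2.36%. In CL kidneys 1 gene was called higher, Irgm1 at 1.34 ± 0.34, beside 1.12% of all genes tested, and that call was absent in the fit of the CL groups alone and when any of the 3 wild-type CL libraries or Acot12-/- CL library 3 was left out. Both contrasts hold the libraries that chose the genes, and nothing is read from either.

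The interferons were scarcely measured. Of 13 interferon genes, 11 were listed at 0 in every library. Ifnb1 appeared in Acot12+/+ UUO library 3 and Acot12-/- UUO library 2 only, at 0.081 and 0.102 FPKM, and Ifng did not exceed 0.458 FPKM. The receptor chains Ifnar1 and Ifnar2 rose with obstruction in both genotypes, Ifnar1 by 0.65 ± 0.13 and 0.47 ± 0.13 and Ifnar2 by 0.42 ± 0.16 and 0.71 ± 0.16. The chains of the interferon gamma receptor were higher in UUO kidneys as well. In Acot12+/+ mice Ifngr1 had 19.7 to 24.9 FPKM in CL and 48.9 to 55.1 in UUO, and Ifngr2 13.3 to 17.3 and 47.8 to 54.1. In Acot12-/- mice Ifngr1 had 15.9 to 18.5 and 43.7 to 58.8 FPKM, and Ifngr2 12.2 to 16.8 and 43.5 to 53.3. Irf1, a transcription factor induced by interferon gamma, had 4.24, 7.07 and 10.3 FPKM in the CL and 35.6, 38.7 and 35.9 FPKM in the UUO kidneys of Acot12-/- mice, so mouse 1 was lowest on both sides, by little in UUO.

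Of 34 tested genes of the wider pathway, 20 rose and none fell with obstruction in Acot12+/+ mice, and 21 rose and 2 fell in Acot12-/- mice, where all genes tested gave 23.6% and 26.6% higher. Of 56 other tested interferon-stimulated genes, 30 rose and 1 fell in Acot12+/+ and 43 rose and 1 fell in Acot12-/- mice. Mouse 1 was lowest in both kidneys for 34 of these 56, beside 11.6% of all genes tested. Neither list had a gene that passed between genotypes in UUO kidneys, where 0 higher and 2 lower of all 13243 genes tested passed. In CL kidneys 2 of the 34 were higher and 1 lower, and 1 of the 56 was higher and 5 lower. All genes tested gave 148 higher and 445 lower there.

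Markers of other cell types also differed between the knockout mice. The 14 macrophage markers summed to 67.5, 99.6 and 134 FPKM in Acot12-/- CL libraries 1, 2 and 3. In Acot12-/- UUO libraries they summed to 771, 995 and 1023 FPKM. The wild type had 180 to 211 FPKM in CL and 711 to 854 FPKM in UUO. Of the 14, 9 were lowest in mouse 1 in both kidneys, beside 11.6% of all genes tested. The sums weigh markers by level, and single markers differed in UUO. C1qa had 136, 241 and 274 FPKM in Acot12-/- UUO libraries, and C1qb and C1qc were also lowest in mouse 1. Lyz2 had 280, 259 and 217 FPKM there, and Ccr2, Csf1r and Mertk were also highest in mouse 1. The 10 endothelial markers summed to 69.4, 97.2 and 102 FPKM in Acot12-/- CL libraries, and each was below every wild-type library there. So were 8 of 14 macrophage, 8 of 13 T and NK cell, 6 of 7 dendritic cell and 6 of 9 fibroblast markers. Of the proximal tubule and podocyte markers 0 of 11 and 0 of 5 were. The share of all genes in this position was not counted, and mouse 1 alone was below all 3 wild-type CL libraries for 34.8%. The 5 neutrophil markers summed to 44.1, 163 and 57.1 FPKM in Acot12-/- UUO libraries, beside 24.6 to 75.9 FPKM in the wild type. The sum of the 13 T and NK cell markers went the other way in UUO kidneys, with 43.8, 24.1 and 30.3 FPKM. The wild type had 49.0 to 53.2 FPKM there. Single markers differed, and 2 of the 13, Cd4 and Klrb1c, were lowest in the UUO kidney of mouse 1. Fibroblast markers were lowest in mouse 1 in both kidneys for 6 of 9, and dendritic cell markers for 2 of 7, with Siglech at 0 in Acot12-/- CL library 1. The same held for 6 of 10 endothelial, 4 of 5 neutrophil and 0 of 13 T and NK cell markers. Each tested proximal tubule marker was lowest in the UUO kidney of mouse 2, below every other UUO library of either genotype. How many of all genes had that position was not counted. Slc34a1 had 454, 79.9 and 354 FPKM in Acot12-/- UUO libraries and Miox 464, 57.8 and 374 FPKM. The wild-type UUO libraries ranged from 153 to 324 and from 92.7 to 359 FPKM. In CL kidneys mouse 2 was highest for some of these markers and lowest for others. The part of these cell types in the levels of the 43 genes was not tested.

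**Figure D5:**
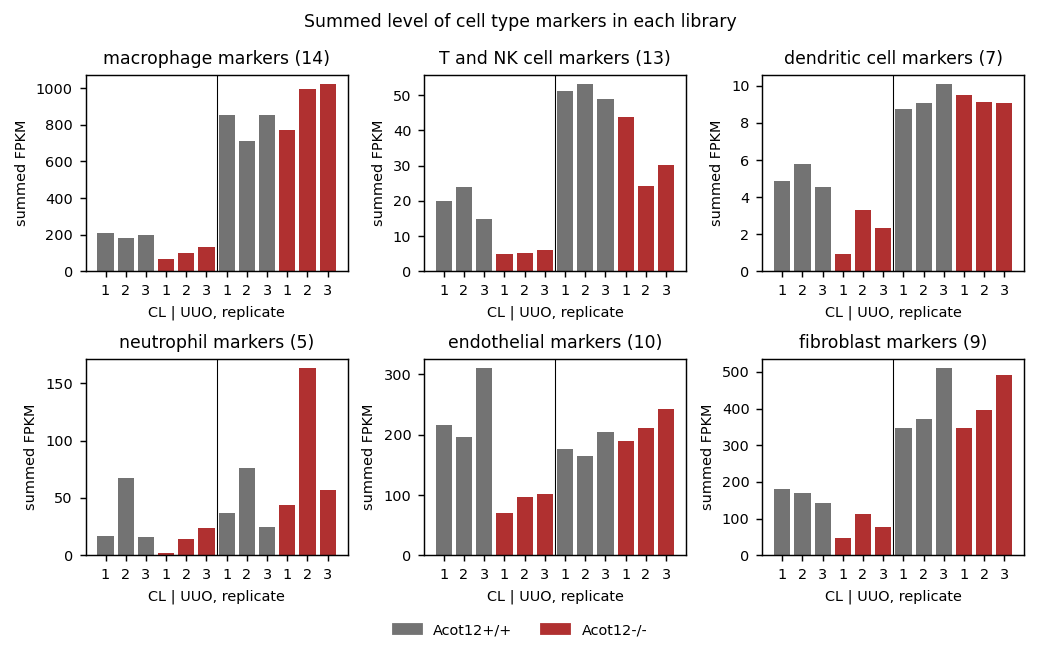
Summed FPKM of 6 lists of cell type markers in each library, CL libraries left of the line and UUO libraries right of it, Acot12+/+ grey and Acot12-/- red, numbered by replicate; each axis starts at 0. Macrophage sums in Acot12-/- UUO libraries are 771, 995 and 1023, and T and NK cell sums there are 43.8, 24.1 and 30.3.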

How the data were processed

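RNA was sequenced from 12 kidney cortex libraries. The deposited values are FPKM per gene symbol, 1 table per library, made for the authors by a service provider from directional libraries. The submitters' processing notes name mm10, and the aligner was not given in the sources used here. FPKM were used as deposited. Genes with at least 1 FPKM in at least 3 libraries were tested, leaving out 58 listed at 0 beside at least 10 FPKM in the same group. limma 3.58.1 (R 4.3.3) was fitted to log2(FPKM + 1) in 4 groups with a variance trend, and Benjamini-Hochberg adjusted p under 0.05 over 13243 genes was called. Fold changes on this scale understate those of low genes, and p-values measure the spread between the numbered replicates. limma was tested on simulated data.

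Relative depth was taken from ratios of low FPKM values, as the median over all routes through the libraries of a side, since single pairs did not always chain: 12 of 15 CL and 13 of 15 UUO pairs lay within 2% of it. Depth between sides was not estimated. Correlations of same-numbered kidneys' residuals were 0.13, 0.36 and 0.33 in Acot12+/+ and 0.32, 0.19 and 0.32 in Acot12-/- mice. Differently numbered kidneys reached 0.14 in Acot12+/+ and -0.07 in Acot12-/- mice, and libraries of different genotypes reached 0.45. The numbers were taken to pair kidneys within a genotype, which these values do not establish. Members, lists and the exclusion of genes at 0 were chosen with earlier results of these data known. Genes were named in full by mean level within a role, size of change, spread among Acot12-/- CL libraries or a printed promoter. A gene of the wider pathway is not reported here.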

Additional observations from a re-analysis of the deposited data

How the results depend on the processing

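Calls among the 43 genes depended on the fit. With obstruction in Acot12+/+ mice 19 were called. The number was 36 with the replicate block and 35 with only the groups compared, both fits without the spread of the knockout mice between them, and 34 with equal total FPKM. It was 11 to 15 when a wild-type library was left out, beside 4911 to 5506 of all genes called, and 15 to 19 under the other alternatives. In Acot12-/- mice it was 25 to 40 in all alternatives, beside 5139 to 8388 of all genes called, with 39 under the replicate block (7445 of 13243 genes). Between genotypes in UUO kidneys it was 0 in all but the fit without both kidneys of Acot12-/- mouse 1, with 6 higher (10 of 13184 genes), libraries that chose the genes. In CL kidneys 1 was called, but 0 with no filter on low values, with equal total FPKM and with only the groups compared, and 0 to 3 when a library was left out. The 3 came without Acot12-/- CL replicate 1, beside 187 of 13217 genes, and without replicate 2, beside 2918 of 13214. The number was 4, 8 and 2 without both kidneys of Acot12-/- mouse 1, 2 and 3. These were 4 higher (all genes 25 higher, 116 lower), 1 higher and 7 lower (1797 and 1417) and 2 lower (128 and 424). The interaction gave 0, but 2 with the replicate block, 0 to 4 when a library was left out, and 2 and 1 without mouse 2 and mouse 3. The 4 came without Acot12-/- CL replicate 2, where all genes gave 513 higher and 386 lower of 13214. All genes gave 78 higher and 5 lower with the block, 248 and 147 without mouse 2, and 34 and 2 without mouse 3. The cause of these shifts between genotypes was not tested. Direction reversed for Ifit1 in Acot12+/+ (0.57 with equal total FPKM) and in Acot12-/- mice for Irgm1 (-0.29 without CL replicate 1, -0.09 without UUO replicate 2, -0.10 without mouse 1, -0.29 to 0.54 when a library was left out) and Igtp (-0.27 without CL replicate 1, -0.17 without mouse 1, -0.27 to 0.35 when a library was left out), none of them called. Over the named genes, 576 alternative values kept direction and side of the threshold, 35 became called, 51 ceased to be and 6 reversed.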
